A study of Homo sapiens with 6 samples.

Results

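The POTE ankyrin genes on chromosome 2q21 and their neighbour FAR2P1 were compared between wild-type (WT) and THUMPD1 KO HEK-293T cells. The set held 7 of the 58870 rows of the gene table and was taken by symbol: POTEE, POTEF, POTEI, POTEJ, POTEM, POTEG and the pseudogene FAR2P1. The members were chosen by their KO and WT levels in the same libraries, where earlier results placed several of them among the genes with much lower levels in THUMPD1 KO cells. Their levels, fold changes and calls are therefore given as a description, with no p value, and nothing is concluded from the fact that they were called. The table has 9 other rows whose symbol begins with POTE and 3 other rows whose symbol begins with FAR2P.

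HEK-293T is an immortalized line of human embryonic kidney origin that carries the SV40 large T antigen. WT cells were the parental line with intact THUMPD1 (Thumpd+/+ in the labels), and THUMPD1 KO cells were HEK-293T cells in which CRISPR-Cas9 had disrupted the gene, followed by sorting of individual cells to found a clone. Both were cultured in DMEM, and 3 libraries of ribosomal RNA-depleted total RNA were sequenced for each genotype. THUMPD1 is the adaptor that brings the acetyltransferase NAT10 to tRNA, and the KO cells of this comparison differ from WT in genotype and in clonal origin, which cannot be told apart. In bulk RNA, fewer cells that express a gene and less RNA per cell cannot be told apart either.

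POTE genes form a primate-specific family that arose from a relative of ANKRD26 and spread by duplication of chromosome segments. Their proteins join ankyrin repeats, which bind other proteins, to coiled-coil helices, and in several copies an actin retrogene has been fused to the end of the reading frame. Their RNA is known mainly from prostate, ovary, testis, placenta and several cancers. FAR2P copies are pseudogenes of FAR2, a fatty acyl-CoA reductase that makes fatty alcohols.

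The start regions of the chromosome 2 POTE copies are shown because these copies share most of their transcript sequence. Their start windows are alike within some pairs and less alike between others. Each sequence runs 5′ to 3′ along the gene's strand, from 250 bases before to 50 bases after the RefSeq start site (GRCh38.p14). Capitals mark CpG dinucleotides, the sites at which vertebrate DNA can be methylated, and methylation was not measured in these libraries. The windows are POTEF at chr2:130129173-130129472 (minus strand), POTEE at chr2:131209286-131209585 (plus strand), POTEI at chr2:130509658-130509957 (upstream start, minus strand) and chr2:130509279-130509578 (downstream start, minus strand), and POTEJ at chr2:130611190-130611489 (plus strand).
POTEF: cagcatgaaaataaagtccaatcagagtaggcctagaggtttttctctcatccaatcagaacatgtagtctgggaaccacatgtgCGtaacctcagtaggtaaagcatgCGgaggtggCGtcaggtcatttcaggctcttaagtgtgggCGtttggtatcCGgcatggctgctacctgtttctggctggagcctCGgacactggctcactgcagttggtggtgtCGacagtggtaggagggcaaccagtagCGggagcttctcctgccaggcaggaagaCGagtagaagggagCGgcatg
POTEE: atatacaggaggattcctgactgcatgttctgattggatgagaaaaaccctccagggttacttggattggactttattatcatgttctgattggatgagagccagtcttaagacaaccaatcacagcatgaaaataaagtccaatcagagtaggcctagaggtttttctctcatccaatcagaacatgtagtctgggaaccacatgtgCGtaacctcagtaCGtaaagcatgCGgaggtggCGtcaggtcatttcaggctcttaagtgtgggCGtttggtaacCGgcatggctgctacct
POTEI upstream start: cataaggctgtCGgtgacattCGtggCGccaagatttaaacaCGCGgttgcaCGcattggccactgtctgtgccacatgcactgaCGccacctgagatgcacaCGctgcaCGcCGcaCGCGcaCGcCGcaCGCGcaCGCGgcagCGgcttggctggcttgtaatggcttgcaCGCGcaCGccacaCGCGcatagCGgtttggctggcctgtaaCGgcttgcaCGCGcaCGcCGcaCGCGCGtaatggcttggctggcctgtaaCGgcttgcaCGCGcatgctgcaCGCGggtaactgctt
POTEI downstream start: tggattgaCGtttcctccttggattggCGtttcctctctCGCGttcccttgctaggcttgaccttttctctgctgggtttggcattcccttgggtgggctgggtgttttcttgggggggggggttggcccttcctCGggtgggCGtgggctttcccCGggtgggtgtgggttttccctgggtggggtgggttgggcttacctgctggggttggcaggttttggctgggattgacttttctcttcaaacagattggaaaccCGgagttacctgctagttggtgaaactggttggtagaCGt
POTEJ: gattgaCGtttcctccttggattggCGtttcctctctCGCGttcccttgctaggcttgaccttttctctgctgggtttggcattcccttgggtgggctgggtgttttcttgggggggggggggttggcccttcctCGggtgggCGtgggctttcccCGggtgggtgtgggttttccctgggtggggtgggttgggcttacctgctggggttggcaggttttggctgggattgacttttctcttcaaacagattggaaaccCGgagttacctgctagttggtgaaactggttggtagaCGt
The windows of POTEF and POTEE aligned over 177 columns with 98.9% identity, and the POTEF window was found near the POTEE start with 97.3% identity over its whole length. The window at the downstream start of POTEI aligned with that of POTEJ over 300 columns with 99.3% identity. The window at its upstream start, which is the start that GENCODE gives, aligned with the POTEF, POTEE and POTEJ windows over only 33 to 73 columns, with 61.9 to 69.7% identity. POTEF and POTEJ aligned over only 84 columns, with 63.1% identity. The start windows of POTEG (chr14:19434292-19434591, minus strand) and POTEM (chr14:18967184-18967483, plus strand) were identical over 300 bases and were 86.3% identical to the downstream POTEI window over 262 columns. FAR2P1 is named only.

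The POTEF window held 10 CpG dinucleotides, the POTEE window 6, and the downstream POTEI window and the POTEJ window 9 each. The median over 35116 RefSeq start windows of the same length was 14, and 96.0% of them held at least 1 CG. The upstream POTEI window, whose start lies 379 bases before the downstream one, held 38 CpG dinucleotides, a number that 91.3% of all windows reach or stay under. The letters CCAAT, searched on both strands, were found 6 times in the POTEE window and 2 times each in the POTEF, downstream POTEI and POTEJ windows, and 1 time in the upstream POTEI window, and 34.6% of all windows hold them. The letters TATAAA (11.5% of all windows, both strands) and GGGCGG (45.0%, both strands) were in none of these windows. These matches describe the sequence only.

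The labels were checked first against the targeted gene. THUMPD1 was counted at 3258, 3315 and 3013 in WT and at 395, 529 and 353 in KO, listed by replicate number as all counts here are, so the genotypes did not overlap. Its mean was 80.9 ± 3.65 counts-per-million (CPM; SD, n = 3) in WT and 11.04 ± 0.918 CPM in THUMPD1 KO (exact permutation test, two-sided, p = 0.1, the smallest that 3 against 3 libraries allow). Library totals were between 32225646 and 44099898 expected counts, so 1 CPM stood for 32.2 to 44.1 counts. Of 8 genes that mark HEK-293T cells, all 8 had counts, with PAX8 at no more than 1 count in any library, and they summed to 560 to 596 CPM in the WT and 482 to 521 CPM in the KO libraries. Of the 7 tested HEK-293T markers, NEFM (log2 fold change −2.75), KRT18 (−0.53) and CDH2 (−0.18) were called lower and PAX2 (0.64) and NEFL (0.31) higher. Of markers of mature kidney, the tissue in the labels, AQP2, UMOD and SLC34A1 were at 0 in every library, AQP1 stood at 0.781 CPM in WT and 0.640 CPM in KO, and LRP2 at 59.7 and 60.5 CPM. Among other cell types, the 4 prostate markers summed to 2.60 to 3.32 CPM in WT and 3.54 to 3.72 CPM in KO libraries with KLK3 at 0, and the 6 germ cell markers summed to at most 0.383 and 0.403 CPM with PRM1 and PRM2 at 0. The 4 blood markers summed to 1.07 to 1.17 CPM in WT and 0.745 to 1.00 CPM in KO libraries with HBB at 0, and the 4 fibroblast markers to 14.4 to 19.01 and 10.2 to 14.8 CPM with COL1A2 at 0. The part of other cell types in the member levels was not tested.

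POTEF (ENSG00000196604.12, chromosome 2, 130073535 to 130129222, minus strand) encodes a POTE protein with an actin domain at its end. It was counted at 574.34, 501.09 and 504.79 in WT and at 3.14, 1.99 and 1.67 in KO. Every KO library was far below every WT library, and POTEF had the highest WT count of the 7 members. The means were 13.3 ± 0.461 CPM in WT and 0.0593 ± 0.0190 CPM in KO (SD, n = 3). The summed counts of each genotype, rounded and divided by its summed library totals, gave a ratio of 219 (exact 95% interval 106 to 546). Every ratio here was computed in this way, so it can differ from the ratio of the means. The interval comes from the same summed counts and covers counting error only. The log2 fold change, KO against WT, was −7.18 (SE 0.28, limma-voom).

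POTEI (ENSG00000196834.12, chromosome 2, 130459455 to 130509707, minus strand), another copy with the actin end, had 330.05, 314.97 and 206.19 counts in WT and 6.31, 1.11 and 3.28 in KO. The genotypes did not overlap, and the WT libraries were less even than for POTEF, with replicate 3 the lowest. The means were 7.14 ± 1.39 CPM and 0.0964 ± 0.0688 CPM. The summed counts gave a ratio of 75.2 (41.8 to 151), and the log2 fold change was −6.05 (SE 0.51).

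POTEE (ENSG00000188219.14, chromosome 2, 131209536 to 131265278, plus strand), the copy whose start region resembles that of POTEF, had 278.24, 272.94 and 246.08 counts in WT and 6.55, 3.9 and 3.05 in KO. Again no KO library reached the WT range. The means were 6.73 ± 0.211 CPM and 0.117 ± 0.0446 CPM. The summed counts gave a ratio of 55.3 (32.8 to 102), and the log2 fold change was −5.30 (SE 0.26).

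POTEJ (ENSG00000222038.3, chromosome 2, 130611440 to 130658037, plus strand) was close to the limit of detection. It had 9.37, 0 and 3.93 counts in WT and 0 in each KO library, so that WT replicate 2 overlapped the KO libraries. Its WT mean was 0.109 ± 0.111 CPM, and since 3 counts in a KO library stand for 0.0680 to 0.0931 CPM, above the level of 0 in WT replicate 2, no fold is given.

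The copies on chromosome 14 were near 0 in both genotypes, and their values give no difference. POTEM (ENSG00000222036.7, 18967434 to 19003752, plus strand) had 1.34, 0 and 0 counts in WT and 0, 2.69 and 0 in KO. POTEG (ENSG00000187537.13, 19402486 to 19434341, minus strand) had 0, 1 and 0 counts in WT and 0, 1.31 and 2 in KO. Both genotypes were at or under 3 counts for both genes, so no fold is given, and a difference between genotypes was not detectable at this depth.

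FAR2P1 (ENSG00000180178.11, chromosome 2, 130028309 to 130040560, minus strand), a pseudogene without a reductase product, had 131.84, 93.91 and 117.59 counts in WT and 3, 2 and 1 in KO. The genotypes did not overlap. The means were 2.89 ± 0.430 CPM and 0.0512 ± 0.0236 CPM. The summed counts gave a ratio of 55.5 (25.3 to 152), and the log2 fold change was −5.59 (SE 0.36).

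**Figure D1:**
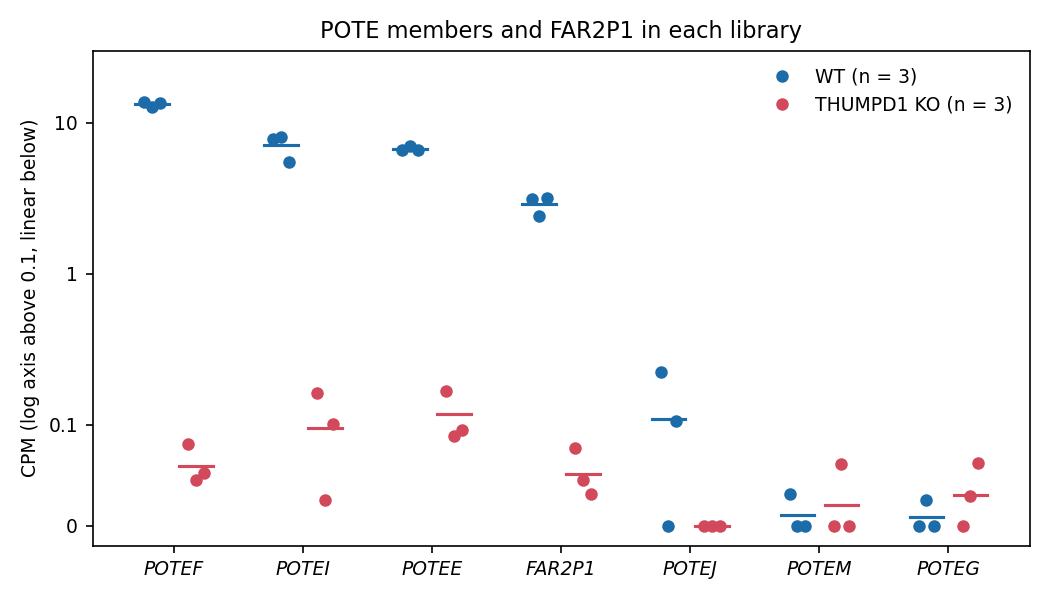
CPM of each member in the 3 WT (blue) and 3 THUMPD1 KO (red) libraries, with a bar at each mean, on an axis that is logarithmic above 0.1 and linear below. POTEF, POTEI, POTEE and FAR2P1 lay between 2.40 and 13.6 CPM in WT and between 0.0252 and 0.169 CPM in KO, while POTEJ, POTEM and POTEG were near 0.

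All 7 members had a count above 0 in some library, and 4 (POTEE, POTEF, POTEI and FAR2P1) passed the filter of at least 1 CPM in at least 3 libraries, which they could meet only through their WT libraries. The other 3 members stayed under the filter. The 4 that passed were all called lower at an adjusted p of 0.05, where 13% of the 15088 tested genes were, and had all KO libraries below all WT libraries, where 17.6% of the tested genes did. Of all tested genes, 7 (0.0464%) had a log2 fold change of −5 or lower, and 4 of them were members. Both the choice of the members and the filter fixed these counts, so nothing is read from them.

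Levels were also compared between members per kilobase of exon, on the CPM scale. In WT the order was FAR2P1 (4.08 ± 0.607 CPM per kb over 709 exonic bases), POTEF (2.83 ± 0.0980 over 4704), POTEE (1.42 ± 0.0446 over 4724), POTEI (1.04 ± 0.204 over 6844) and POTEJ (0.0324 ± 0.0330 over 3370). POTEG and POTEM were last at 0.00339 and 0.00152. No library of FAR2P1, POTEF, POTEE or POTEI overlapped the range of the next gene in this order, whereas POTEJ overlapped POTEG, and POTEG overlapped POTEM. The place of FAR2P1 rests on reads that it shares in full with a longer transcript, described further on.

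The copies are so alike that how many reads belong to each is uncertain. Their longest annotated transcripts were 99.3% identical between POTEE and POTEF, 99.7% between POTEI and POTEJ and 99.6% between POTEG and POTEM. POTEE or POTEF against POTEI or POTEJ gave 98.1 to 98.3%. The actin end was still recognisable, since the members aligned to the transcript of ACTB, cytoplasmic beta-actin, with 91.6 to 92.5% identity, over 431 bases in POTEG and 1294 to 1724 bases in the other copies. RSEM divides a read that fits several transcripts among them by estimated share, which leaves counts that are not whole.

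Transcripts were cut into windows of 100 bases, and windows found in the transcripts of no other gene of the table were counted. The share of such windows was 49.7% for POTEF, 56.2% for POTEI and 52.2% for POTEE, so about as many windows had copies elsewhere as had none. It was 18.8% for POTEJ, which shared 74.9% of its windows with POTEI, and 25.0% for POTEG, which shared 69.8% with POTEM. POTEM had 63.2% unique windows and FAR2P1 had 0.0%.

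**Figure D2:**
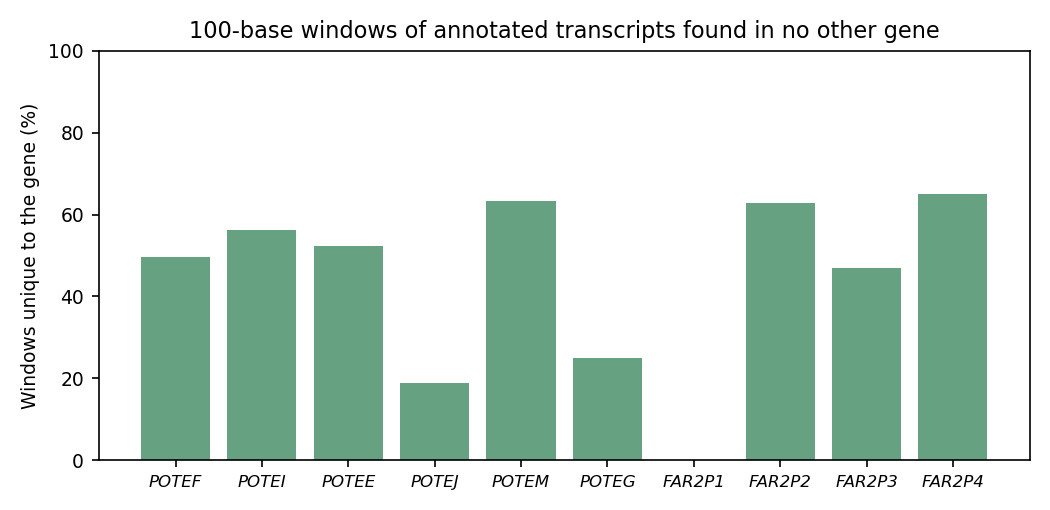
Share of distinct 100-base windows of the annotated transcripts that occur in no other gene of the table, in percent, for the members and the other FAR2P copies. POTEF, POTEI and POTEE had 49.7 to 56.2% unique windows, and FAR2P1 had none.

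Summing the copies sets aside how reads were divided among them. POTEE, POTEF, POTEI and POTEJ together had 1192, 1089 and 961 counts in WT and 16, 7 and 8 in KO. These sums were whole to within 0.02 in 6 of 6 libraries although 20 of the 24 single values were not, so the fractional reads of each copy were balanced by the other copies on chromosome 2. The summed level was 27.3 ± 1.33 CPM in WT and 0.273 ± 0.128 CPM in KO. The ratio from counts summed over libraries was 102 (71.4 to 150). A row holding the sum of the copies gave a log2 fold change of −6.49 (SE 0.24). POTEG, POTEM and the chromosome 22 copy POTEH summed to 3, 1 and 1 counts in WT and 0, 4 and 2 in KO. Only 4 of their 18 single values were fractional, all in WT replicate 1 and KO replicate 2.

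Within the chromosome 2 sum, POTEF held 48.9 ± 3.32% (SD, n = 3) in WT, POTEI 26.0 ± 4.003%, POTEE 24.7 ± 1.18% and POTEJ 0.398 ± 0.393%. In the KO libraries POTEF held 19.6, 28.4 and 20.9%, and POTEE held 40.9, 55.7 and 38.1%. POTEF was thus the leading copy in every WT library and never in KO. The KO shares rest on sums of 7 to 16 counts that the estimation divided among copies, and they were not tested.

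Each of the 4 chromosome 2 POTE members had a FAR2P copy downstream on the same strand, at a similar distance. The gap was 33.0 kb from POTEF to FAR2P1, 28.1 kb from POTEI to FAR2P2, 32.1 kb from POTEJ to FAR2P3 and 31.6 kb from POTEE to FAR2P4. POTEKP, a POTE row further along the same stretch (131591752 to 131628147, plus strand), was at 0 in every library. The FAR2P copies span 12.2 to 12.3 kb each and their transcripts were 96.9 to 99.0% identical. FAR2P2, FAR2P3 and FAR2P4 were below the CPM filter, so their tests come from the fit with no filter, in which 5.13% of genes were called lower.

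FAR2P2 had 13.32, 9.78 and 8.49 counts in WT and 0, 1 and 0 in KO, a ratio of 31.1 (5.19 to 1266). FAR2P3 had 15.97, 12.98 and 6.72 counts in WT and 0 in every KO library, at least 3.74-fold higher in WT. FAR2P4 had 17.11, 21.14 and 17.79 counts in WT and 0 in every KO library, at least 5.97-fold higher in WT. In each of the 3 pseudogenes all KO libraries were below all WT libraries, as in 10.7% of genes with a count. The limma-voom log2 fold changes were −3.94 for FAR2P2 (Benjamini-Hochberg adjusted p = 0.00155), −4.58 for FAR2P3 (adjusted p = 5.56e-04) and −5.30 for FAR2P4 (adjusted p = 1.68e-04). With each library left out in turn, where 2.06 to 4.28% of genes were called lower, or with the replicate block (3.78%), the adjusted p stayed at or below 0.0297 for FAR2P2, 0.0209 for FAR2P3 and 0.0119 for FAR2P4. The 3 pseudogenes were named after their values were seen, and the fits with a left-out library or the block were added then. Their adjusted p values are therefore a description. Since these copies share windows with one another and some with FAR2P1, the 4 pseudogenes are not independent measurements. FAR2P3 exceeded 6 counts in every WT library although POTEJ, 32.1 kb upstream of it, was at 0 in WT replicate 2. That 0 is uncertain, since POTEJ had 18.8% unique windows and shared 74.9% with POTEI, to which its reads may have been assigned.

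**Figure D3:**
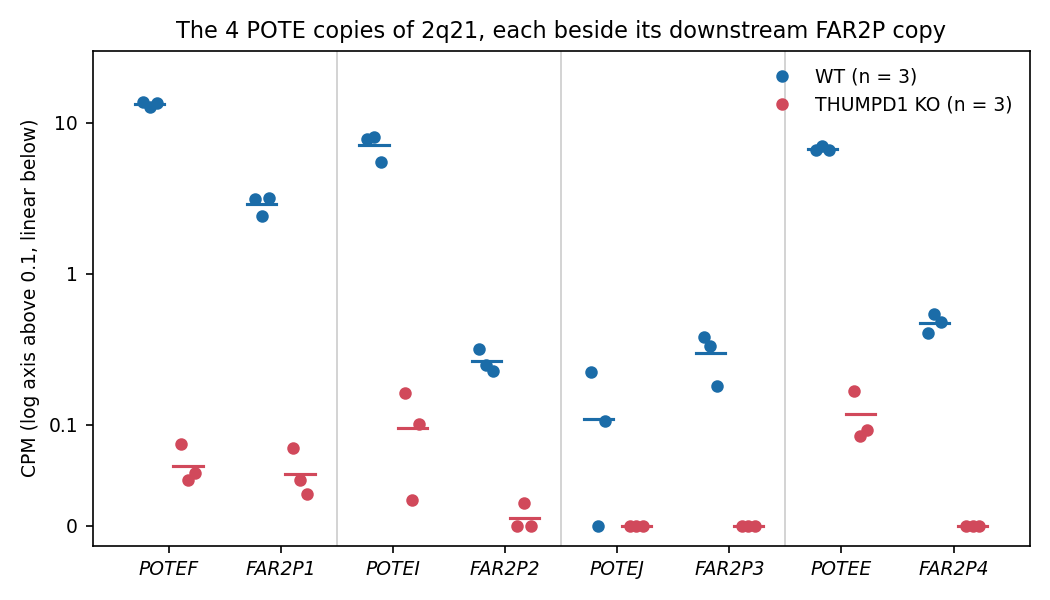
CPM of the 4 chromosome 2 POTE members, each beside the FAR2P copy downstream of it, in the 3 WT (blue) and 3 THUMPD1 KO (red) libraries with a bar at each mean, on an axis that is logarithmic above 0.1 and linear below. Every pseudogene was higher in WT, and FAR2P2, FAR2P3 and FAR2P4 stood between 0.180 and 0.540 CPM in WT against 0 to 0.0227 CPM in KO.

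FAR2P1 lies within a longer annotated RNA, AC018865.3 (ENSG00000286058.1, chromosome 2, 130026845 to 130051131, minus strand), a long noncoding RNA. All 709 exonic bases of FAR2P1 are also exonic in AC018865.3, where they make up 17.3%, so reads there cannot be told apart. AC018865.3 had 377.3, 331.68 and 279.14 counts in WT and 2, 1 and 1 in KO, a ratio of 240 (93.4 to 882) without overlap. FAR2P1 and AC018865.3 summed to 509.14, 425.59 and 396.73 counts in WT and to 5, 3 and 2 in KO, a ratio of 129 (70.1 to 270). The log2 fold change of AC018865.3 was −7.81 (SE 0.31). Of its 100-base windows, 73.0% were in no other gene and 15.2% were shared with FAR2P1, which had 0.0% unique windows. FAR2P1 therefore cannot be measured apart from AC018865.3, and the rows, on the same strand of the same locus, are not taken as independent. Only after 7 rows were summed (the 4 FAR2P rows, AC018865.3, the cytochrome P450 pseudogene CYP4F30P and AC140481.3, chosen after their values were seen) were the totals whole in 6 of 6 libraries, at 580, 494 and 442 counts in WT and 5, 5 and 2 in KO.

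3 further rows near the copies, named after their values were seen, had counts almost only in WT. MED15P9, a pseudogene of a Mediator subunit upstream of the POTEF start (130135978 to 130137759, plus strand), had 35, 13 and 15 counts in WT and 0 in each KO library, at least 6.57-fold higher in WT. Of its 100-base windows, 99.3% were in no other gene and 0.7% were shared with MED15P8. CYP4F30P had 15.85, 14.79 and 2.45 counts in WT and 0 in KO. Its WT replicate 3 was under 3 counts, so no fold is given. AC140481.3 had 8.61, 9.73 and 9.82 counts in WT and 0, 1 and 0 in KO. CYP4F30P and AC140481.3 gave whole totals when summed with the FAR2P rows and AC018865.3, so they are not taken as separate evidence. With no filter the adjusted p (limma-voom) was 4.84e-04 for MED15P9, 0.00686 for CYP4F30P and 0.00228 for AC140481.3. The call of CYP4F30P was lost without KO replicate 1, 2 or 3 (adjusted p = 0.0785, 0.0997 and 0.0929), while MED15P9 and AC140481.3 stayed under 0.05 without any 1 library.

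Genes between and around the copies were then examined to see how far the lower levels extended. Within 500 kb of a chromosome 2 member lay 121 other rows, of which 49 had a count and 17 passed the filter. Of these 17, 3 were called lower and 2 higher, against 13% and 13.7% of all tested genes, and their median log2 fold change was −0.02, against 0.02 over all tested genes.

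Several tested neighbours, between and beside the copies, were not called. SMPD4, a sphingomyelinase gene whose nearer end is within 30 kb of the POTEF start, stood at 124.2 ± 4.82 CPM in WT and 124.1 ± 5.86 CPM in KO (log2 fold change −0.03, adjusted p = 0.706). CCDC74B, which lies between SMPD4 and MED15P9, had a log2 fold change of 0.06 (adjusted p = 0.702). MZT2B, a component of the gamma-tubulin complex, had 0.0079 (adjusted p = 0.926), and IMP4, of the small subunit processome, had 0.0040 (adjusted p = 0.969). PTPN18, a tyrosine phosphatase gene between POTEF and POTEI, had −0.09 (adjusted p = 0.530). ARHGEF4, an exchange factor gene between POTEJ and POTEE, had −0.05 (adjusted p = 0.592). For CCDC115, AC073869.1 and RAB6D the values were 0.13, 0.14 and 0.15, with adjusted p at or above 0.180.

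Beside AC018865.3, the called neighbours changed far less than the members. RAB6C, a retrogene of the GTPase RAB6A and the next tested gene past FAR2P1 and AC018865.3, fell from 1.76 ± 0.183 to 1.14 ± 0.244 CPM (log2 fold change −0.74, SE 0.19, adjusted p = 0.0141). Its call was lost under DESeq2 (adjusted p = 0.0792) and without WT replicate 3, KO replicate 2 or KO replicate 3 (0.0550, 0.0566 and 0.0572). The gene beyond it, RAB6C-AS1, had −0.06 (adjusted p = 0.855). C2orf27A fell by 0.72 on the log2 scale (SE 0.15, adjusted p = 0.00555), from 2.41 ± 0.104 to 1.53 ± 0.123 CPM. FAM168B and PLEKHB2 rose by 0.19 each (adjusted p = 0.00650 and 0.00977).

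PLEKHB2, which encodes a pleckstrin homology domain protein of endosomes, is the host of a POTE copy. POTEE lies on the same strand inside the longest span of PLEKHB2 (131104847 to 131353709), which 1 of its 12 annotated transcripts covers, and the genes share 0 exonic bases. PLEKHB2 stood at 67.2 ± 0.697 CPM in WT and 76.5 ± 2.71 CPM in KO, so the host was higher where POTEE was lower.

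The map shows 28 rows with at least 10 counts in some library, which leaves out POTEJ, in the fit with no filter. The 7 chromosome 2 members and FAR2P copies among them had log2 fold changes between −7.74 and −3.94. These include the genes chosen for low KO levels, so their place on the map is a description. The other 21 rows were between −7.54 and 0.98, with a median of −0.03, and 3 of them (AC018865.3, MED15P9 and CYP4F30P) were below −3. CCDC74B, whose midpoint is nearer to the POTEF start than that of FAR2P1, was at 0.06. With no filter, 12 of 49 neighbours were called, 9 lower (5.13% of genes) and 3 higher (4.96%). Among the 9 were AC018865.3, FAR2P2, FAR2P3, FAR2P4, CYP4F30P and AC140481.3. These rows overlap FAR2P1, are copies of it or may share reads with such rows, so the 9 are not independent neighbours.

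**Figure D4:**
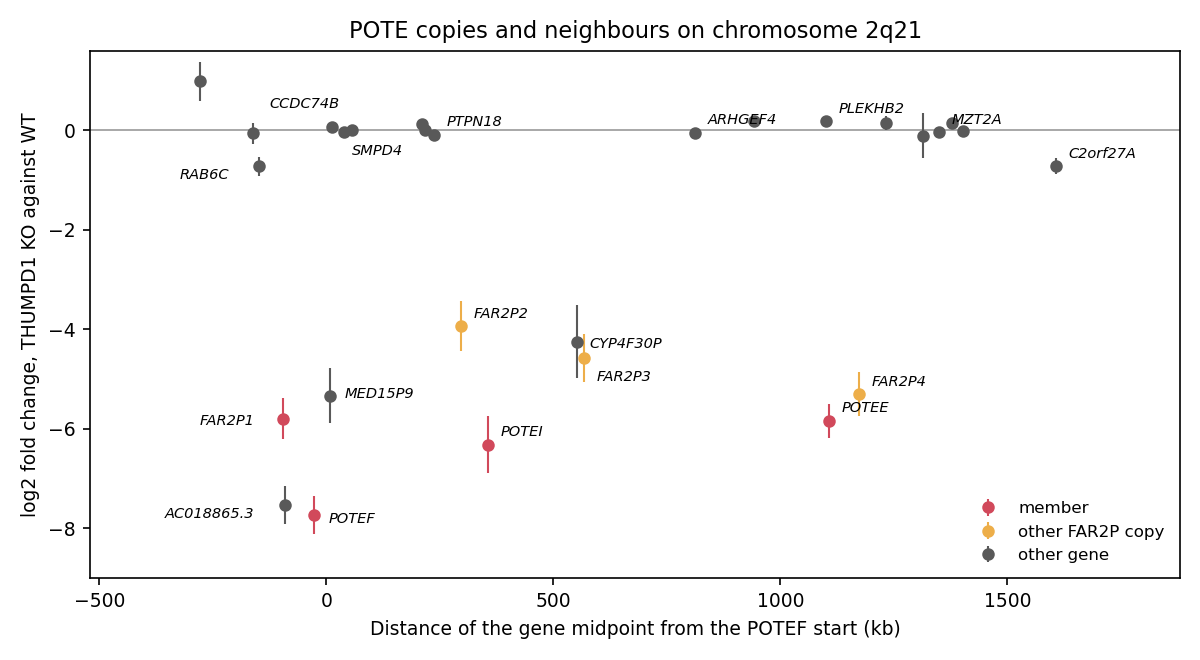
Log2 fold change, THUMPD1 KO against WT, from the limma-voom fit with no filter (bars are standard errors) by distance of each gene's midpoint from the POTEF start in kb, for members (red), other FAR2P copies (yellow) and other genes (grey) with at least 10 counts in some library. The 7 members and FAR2P copies shown lay between −7.74 and −3.94, and POTEJ, under 10 counts in every library, is not shown. AC018865.3, MED15P9 and CYP4F30P were also below −3, and the other grey points lay between −0.73 and 0.98.

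Genes related to the members by family were examined next. Of the 9 other POTE rows, 7, among them POTEKP, were at 0 in every library, POTEH had at most 1.66 counts and POTEC at most 1, and none could be tested. Of 13 genes of the ANKRD26 family, from which POTE genes descend, 9 were tested, and 0 were called lower and 1 higher, with a median log2 fold change of 0.12. That gene, ANKRD18A, was 0.20 higher (SE 0.06, adjusted p = 0.0270), a call lost without WT replicate 2 or 3 or KO replicate 2 or 3 (adjusted p = 0.0626, 0.108, 0.111 and 0.0972) and with no filter (0.0709). ANKRD26 itself, a protein of the centriole appendages, had 0.16 (SE 0.06, adjusted p = 0.0736, and 0.0170 with the replicate block, under which 16.7% of tested genes were called lower and 18.4% higher).

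Among 7 actin genes, whose sequence forms the end of the chromosome 2 POTE proteins, 3 were tested. Of these, 0 were called lower and 1 higher, against 13% and 13.7% of all tested genes. ACTA2, smooth muscle actin, was higher by 1.04 (SE 0.25, adjusted p = 0.0116) at the low levels of 0.695 ± 0.171 CPM in WT and 1.602 ± 0.382 CPM in KO. ACTB stood at 1772 ± 20.9 CPM in WT and 1802 ± 81.5 CPM in KO (log2 fold change −0.04 after quantile normalization, adjusted p = 0.511). ACTG1 had 0.13 (adjusted p = 0.147, and 0.0182 with the replicate block). Of the functional reductases, FAR2 fell from 30.95 ± 0.678 to 24.7 ± 2.85 CPM (log2 fold change −0.33, SE 0.07, adjusted p = 0.00584), and FAR1, which supplies fatty alcohol for ether lipids, had 0.12 (adjusted p = 0.0869).

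The genes whose pattern over the 6 libraries was most like that of POTEF were found among 14423 genes of at least 1 CPM in every WT library. Likeness was the Euclidean distance of log2(CPM + 0.1) less the WT mean. The nearest was AC018865.3 (distance 0.793), followed by MAGEA1 on chromosome X (2.92), a cancer-testis antigen gene. Next came PAPLN on chromosome 14 (2.98), ZNF334 on chromosome 20 (3.05) and BEX1 on chromosome X (3.76). MAGEA1 had 2538, 2788 and 2533 counts in WT and 5, 5 and 7 in KO. Except for AC018865.3, none of these lies on chromosome 2.

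A count of at least 1 CPM in every WT library with at most 3 counts in every KO library was met by 3 of 14427 genes (0.0208%). These were FAR2P1, AC018865.3 and ZNF334, a zinc finger gene with 166, 136 and 140 counts in WT and 3, 1 and 2 in KO. FAR2P1 is a member chosen for its levels and lies within AC018865.3, so these rows are not independent. POTEF missed the limit with 3.14 counts in KO replicate 1, and MAGEA1 with 5, 5 and 7 counts in KO.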

How the data were processed

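The labels describe 6 libraries, 3 WT and 3 THUMPD1 KO, and the sample titles gave the group and replicate number of each. The submitters' processing notes name STAR, RSEM and limma with the build hg38, and no versions. The table deposited by the authors holds RSEM expected counts per gene, which are unscaled and can be fractional. Whether counting used strand is not given in the sources used here. The methods of the study name GENCODE 46. GENCODE 44 on GRCh38 was used here for positions, exons and transcripts, and matched 58472 of the 58870 rows.

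The members and all gene lists were chosen with earlier results of these data known. CPM are the deposited expected counts divided by each library's total. The comparison followed the study's methods. Genes of at least 1 CPM in at least 3 of 6 libraries (15088) entered a limma-voom fit after quantile normalization (limma 3.58.1, R 4.3.3), with genotype as the only term. Two-sided p values received a Benjamini-Hochberg adjustment across every gene tested, with a threshold of 0.05. The adjusted p values measure the spread between these libraries, which may be technical, since the labels do not name separate cultures. Scripts were tested on simulated data. Ratios of summed counts have exact (Clopper-Pearson) 95% intervals. Where all KO libraries were at 0 and every WT library exceeded 3 counts, the ratio was set against 3 counts per library. Intervals and this limit cover counting error only.

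Genes were named by rule: the members, THUMPD1, up to 10 genes per list with at least 1 CPM in either genotype by smallest adjusted p, the genes on both sides where called neighbours end, and the 5 genes most like POTEF in pattern. SMPD4, MZT2B, IMP4, FAR2P2, FAR2P3, FAR2P4, MED15P9, CYP4F30P, AC140481.3, POTEH, POTEC and POTEKP were named after their values were seen.

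Deviations from the genotype means correlated at 0.292, 0.246 and 0.159 for libraries of the same replicate number and at −0.273 to 0.11 for others, on 12957 genes. The labels do not explain the numbers, and the main fit and the permutation test did not use them. A fit with the replicate block, which treats the numbers as pairs, was an alternative. Others were TMM, library sizes alone, other filters, quality weights, edgeR 4.0.16, DESeq2 1.42.0 (both after rounding the counts), neighbours within 250 or 1000 kb, POTE copies summed, and each library left out. Leaving out libraries and blocking with no filter were added after seeing the data. Sequences were aligned with Biopython 1.88.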

Additional observations from a re-analysis of the deposited data

How the results depend on the processing

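Since the members were chosen for lower KO levels in these libraries, their calls in other settings restate that choice. The log2 fold changes ranged from −5.84 to −4.91 for POTEE, −7.82 to −6.84 for POTEF, −6.49 to −5.02 for POTEI (the last without THUMPD1 KO replicate 2) and −6.04 to −5.001 for FAR2P1. THUMPD1 ranged from −2.96 to −2.79. With at least 1 CPM required in all libraries 0 members were tested and 0 called, with the 4 copies summed 2 rows were called, and in the other settings 4. Called neighbours numbered 5, and 3 with at least 1 CPM in all libraries, 12 with no filter, and 4 to 6 with 1 library left out. With no filter they numbered 7 to 10 with 1 library left out and 8 with the replicate block. Called relatives (ANKRD26 family, actins and FAR genes) numbered 3, and 5 with no filter (FAR2P2, FAR2P3 and FAR2P4 among them, which are also counted as neighbours), 6 with quality weights, 5 with the replicate block, and 2 to 4 with 1 library left out. C2orf27A, FAM168B, PLEKHB2, ACTA2 and FAR2 kept their calls in every filtered fit that tested them, and lost them in 3 to 6 of the 7 fits that joined no filter with a left-out library or the block. The block left the counts of called members and called neighbours of the filtered fit at 4 and 5. Over all tested genes, 26.7% were called in either direction, and 26.9% with at least 1 CPM in all libraries. The share was 36.5% with quality weights, 35.1% with the block and 17.6 to 28.1% with 1 library left out. With no filter it was 10.1%, with 3.82 to 8.1% when 1 library was left out and 7.03% with the block. Nothing is read from the changes in the counts of called neighbours and relatives. Depth limits POTEJ, POTEM, POTEG and the other FAR2P copies, whose KO values are 0 to 3 counts.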
